A study of Mus musculus with 9 samples.

Results

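The lysozyme paralogs Lyz2 and Lyz1 are described here, 2 of the 55322 genes for which the authors deposited FPKM (fragments per kilobase of exon, scaled to the number of fragments counted). They were picked by gene name and not by a cut on their values, although earlier results of these data were known at the time. The 9 RNA-sequencing libraries form 3 groups of 3, all from wild-type C57BL/6J mice. At 48 h after an injection of LPS (5 mg/kg), CD11b+ B cells and CD11b- B cells were taken by sorting from the BM. LPS is a cell wall component of Gram-negative bacteria. Peritoneal macrophages (PMs, CD11b+F4/80+) came from naive mice that received no LPS. Cells carrying CD3, CD4, CD8, Gr-1, NK1.1 or TER119 were removed from the BM beforehand, a step directed at granulocytes as well as T, NK and erythroid cells. Tissue and treatment both differ between B cells and PMs, so the cell type, the site and LPS cannot be told apart in any comparison with PMs. The sources used here do not give the ages of these mice. By the study's convention, in which an SD marks biological replicates, the libraries of a group count as such, but whether each came from 1 mouse or from a pool is not stated. The p-values measure the spread between these libraries.

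Lysozyme cuts the sugar backbone of peptidoglycan, the mesh that holds the bacterial cell wall together. The mouse has duplicated the gene. Lyz2 encodes lysozyme M, made in bulk by macrophages, monocytes and neutrophils and long used as a marker of these lineages, and Lyz1 encodes lysozyme P, best known from the granules of Paneth cells in the small intestine. B cells are not known as a major source of either enzyme.

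The genes lie in tandem on the minus strand of chromosome 10, 5475 bases apart, each with 4 exons that carry coding sequence. In GENCODE M21 (GRCm38), Lyz2 (ENSMUSG00000069516) spans chr10:117277331-117282321 and Lyz1 (ENSMUSG00000069515) spans chr10:117287797-117292868. Their coding sequences are 95.1% identical, with 22 differing bases of 447. Exon 1 held most of the coding differences (14 of 136 coding bases), while exon 3 was the same in both genes over all its 79 bases. Exon 2, which both genes code with 165 bases, differs at 6 of them, and it is shown because reads over such stretches can be assigned to 1 gene by these few bases only. Exon 2 of Lyz2 lies at chr10:117280641-117280805 and that of Lyz1 at chr10:117291029-117291193. Both are written 5′ to 3′ on the coding strand, with the bases that differ between the genes in capitals.
Lyz2: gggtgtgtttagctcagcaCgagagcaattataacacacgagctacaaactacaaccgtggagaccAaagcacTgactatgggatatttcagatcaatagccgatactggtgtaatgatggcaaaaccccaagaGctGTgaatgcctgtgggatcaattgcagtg
Lyz1: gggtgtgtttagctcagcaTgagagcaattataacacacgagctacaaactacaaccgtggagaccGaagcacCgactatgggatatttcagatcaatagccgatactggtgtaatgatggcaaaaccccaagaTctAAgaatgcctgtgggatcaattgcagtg

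Read length bears on how well the pair can be separated. The reads were 150 bases long, and none of the 1167 possible windows of that length in the Lyz2 transcript, and none of the 1114 in the Lyz1 transcript, occurred unchanged in the other. The median window differed at 6 bases from the paralog. However, 116 Lyz2 windows and 156 Lyz1 windows differed at fewer than 3 bases, and the closest differed at 1. No transcript of another gene shared a window of 150 bases with either gene. These windows stand for single reads of full length. The reads came in pairs and were trimmed before mapping, so the window counts do not describe the mapped fragments. The sources used here do not say how reads that fit more than 1 place were counted, so each split of reads between Lyz1 and Lyz2 is uncertain to that extent. No other gene in the deposited table overlapped the pair.

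**Figure D1:**
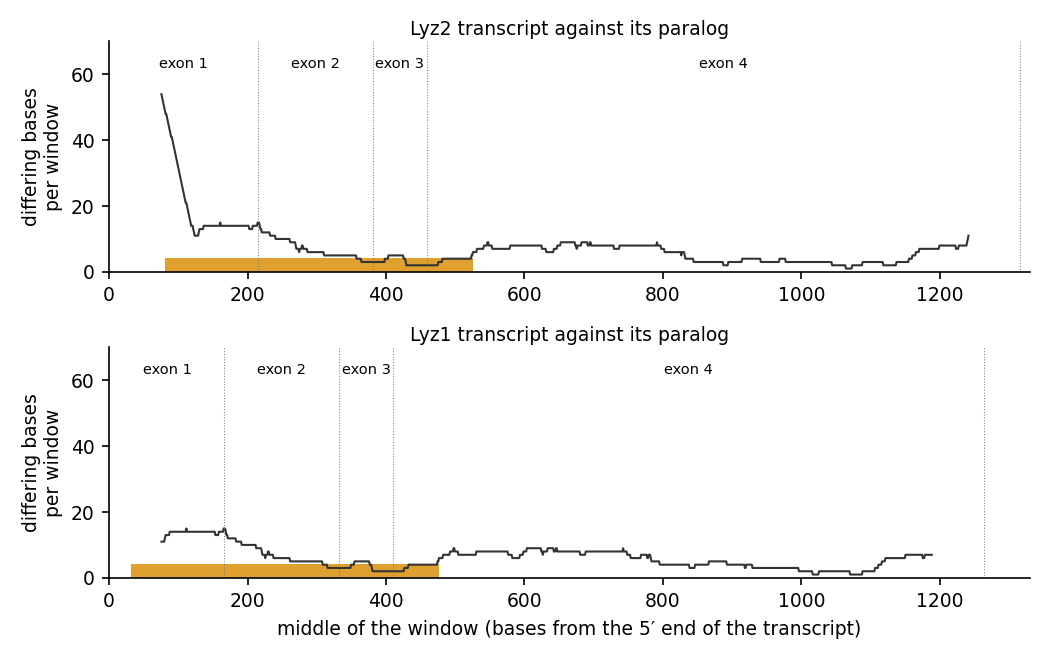
Number of bases in each 150-base window of the Lyz2 transcript (upper) and the Lyz1 transcript (lower) that differ from or have no counterpart in the paralog, by the position of the middle of the window in bases from the 5′ end of the transcript. Dotted lines mark exon ends and the orange bar the coding sequence. The first windows of Lyz2 stand out because its annotated exon 1 starts farther upstream, and the count falls to 1 in exon 4 of both.

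The promoters of the pair are less alike than the coding sequences upstream, and more alike around the start. Over the 250 bases before the start given by RefSeq (GRCm38.p6), 85.4% of the aligned bases were identical, and over the first 200 of these, 154 of 189. Over the 100 bases around the start, from 50 before to 50 after, 99 were identical. These 200 bases are shown because the 2 genes differed between the B cell groups in the way described below. They lie at chr10:117282323-117282522 for Lyz2 and chr10:117292919-117293118 for Lyz1, on the minus strand, with bases that differ or have no counterpart in capitals.
Lyz2: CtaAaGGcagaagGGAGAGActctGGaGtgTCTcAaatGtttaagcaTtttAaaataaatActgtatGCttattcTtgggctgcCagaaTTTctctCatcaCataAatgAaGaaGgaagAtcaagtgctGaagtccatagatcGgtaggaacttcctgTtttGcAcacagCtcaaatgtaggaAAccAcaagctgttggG
Lyz1: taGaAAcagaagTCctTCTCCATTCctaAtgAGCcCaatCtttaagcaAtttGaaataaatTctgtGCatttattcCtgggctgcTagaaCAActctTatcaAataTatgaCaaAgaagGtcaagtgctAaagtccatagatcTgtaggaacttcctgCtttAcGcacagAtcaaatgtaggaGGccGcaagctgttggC

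Motifs of ETS and C/EBP factors, which are known to act on myeloid lysozyme genes, and the TATA, AP-1 and E-box motifs were searched on both strands. The search covered 300 bases, from 250 before to 50 after the RefSeq start, and the matches were compared with 32817 mouse promoters of the same length. AGGAAGT, a core of ETS factors such as PU.1, had 1 match in each gene, with its first base at -100 on the minus strand, and was present in 9.35% of all promoters. TTGCNNAA, a C/EBP core, had no match in Lyz2 and 1 in Lyz1 at -209 on the minus strand, and was present in 10.8% of promoters. CAGCTG, an E-box, had 1 match in each gene at 7 bases from the start and was present in 16.3%, whereas neither TATAAA (13.6%) nor the AP-1 core TGANTCA (7.81%) matched in either gene. The annotated start of Lyz2 in GENCODE lies 49 bases upstream of the RefSeq start.

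The libraries held 18014658 to 35251215 reads on genes, recovered from the FPKM as whole reads. Of the B cell markers, Cd79a, a subunit of the B cell receptor, had mean levels of 2051 ± 184 FPKM (SD, n = 3) for the CD11b+ group, 2434 ± 168 for the CD11b- group and 26.96 ± 7.37 for PMs. Ms4a1, which encodes CD20, was at 375 ± 96.9, 510.1 ± 149.5 and 4.20 ± 1.195 FPKM in the same order. Itgam, which encodes CD11b, stood at 1.58 ± 0.311 FPKM in CD11b+ B cells and 0.507 ± 0.323 in CD11b- B cells. The 10 markers of resident peritoneal macrophages, among them Gata6 and Timd4, were detected in all libraries of all groups. They summed to 8971 to 9750 FPKM in PMs, 64.3 to 75.6 FPKM in CD11b+ B cells and 69.9 to 87.6 FPKM in CD11b- B cells. Markers of neutrophils (15 genes) differed widely among the CD11b+ B cell libraries and are given with Lyz2 below. In these bulk libraries, fewer cells of a type and less RNA per cell cannot be told apart.

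In PMs, Lyz2 was among the most abundant transcripts. Its level was 18657, 41511 and 53005 FPKM in the 3 libraries, from 442310, 1595622 and 1407679 reads. These reads made up 2.46%, 5.46% and 6.98% of all reads on genes, and Lyz2 ranked second by FPKM in the first library and first in the others. The mean was 37724 ± 17484 FPKM (SD, n = 3), with a 2.84-fold range between libraries.

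Lyz1 was also high in PMs. Its level was 434, 682 and 861 FPKM, from 9865, 25158 and 21935 reads, and it ranked 111, 70 and 46 among all genes. The mean was 659 ± 214 FPKM. Both genes were lowest in the same PM library and highest in the same one, and per length Lyz2 stood 43.0 to 61.6 times above Lyz1 in each PM library.

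In CD11b- B cells, both genes were read at a small fraction of the PM level. Lyz2 was at 30.8, 30.1 and 42.2 FPKM there, from 1354, 1380 and 1779 reads. Lyz1 was at 0.854, 0.590 and 0.667 FPKM, from 36, 26 and 27 reads. The 3 libraries were close to each other for both genes, with means of 34.4 ± 6.78 FPKM for Lyz2 and 0.704 ± 0.136 FPKM for Lyz1.

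In CD11b+ B cells, Lyz2 was uneven between libraries and Lyz1 was not. Lyz2 was at 261, 240 and 65.4 FPKM, from 10097, 8279 and 3035 reads, and ranked 173, 190 and 818 among all genes. Its mean was 189 ± 108 FPKM, and replicate 3 lay 3.99-fold below replicate 1. Lyz1 was at 0.674, 0.544 and 0.562 FPKM, from 25, 18 and 25 reads, with a mean of 0.593 ± 0.0703 FPKM. With so few reads, differences in Lyz1 between B cell libraries are limited by counting error.

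**Figure D2:**
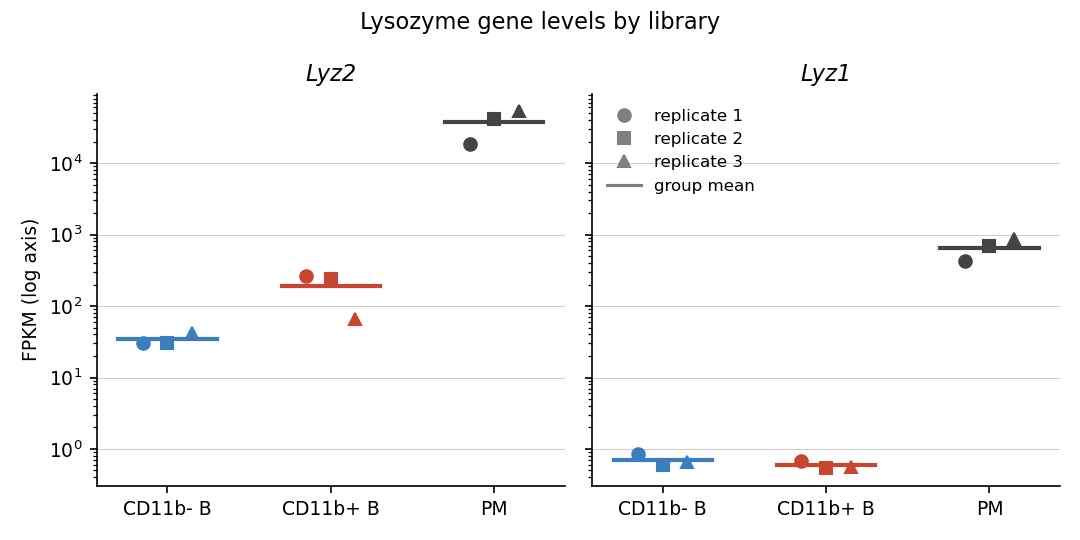
FPKM (log axis) of Lyz2 (left) and Lyz1 (right) in each library, with the mean of each group as a line and the replicate given by the marker. Lyz2 separates all 3 groups, whereas the Lyz1 values of the B cell groups overlap and lie far below those of PMs.

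The first comparison asks whether B cells that carry CD11b after LPS hold more lysozyme transcript than those that do not. The mean Lyz2 level was 5.502-fold higher in CD11b+ B cells than in CD11b- B cells, and the groups did not overlap: the lowest CD11b+ library stood 1.55-fold above the highest CD11b- library. On the log2(FPKM + 1) scale, which understates the change of low genes, the difference was 2.21 (SE 0.48, 95% interval 1.10 to 3.32). It did not pass the threshold over 21778 genes (limma, adjusted p = 0.279, unadjusted p = 0.00179). An exact two-sided permutation test of the means gave p = 0.1, the smallest value that 3 against 3 libraries can give. Among all genes tested, 0.0689% were called higher in CD11b+ B cells (15 genes) and 8.63% had groups that did not overlap with CD11b+ B cells higher, so a gene without overlap was not rare.

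The call for Lyz2 depended on the test and on 1 library. DESeq2 on the recovered whole reads gave a log2 difference of 2.44 (adjusted p = 3.66e-07), and edgeR's quasi-likelihood test with its filter gave 2.44 (adjusted p = 0.0791). Without CD11b+ replicate 3, limma gave 2.85 (adjusted p = 0.00405), and without the other libraries in turn it made no call. A block on the 2 pairs of B cell libraries that share a number in the sample descriptions gave 1.83 (limma adjusted p = 0.0304). That fit left out replicate 2 of each B cell group, so the pairing and the set of libraries changed together. A block on the title numbers, which keeps all 6 libraries, gave 2.21 (limma adjusted p = 0.277). The sources used here do not say whether either number marks a mouse or a sort. The difference was positive under all 18 alternatives, whose adjusted p-values ran from 7.78e-28 to 0.889.

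Lyz1 gave no such difference. Its mean was slightly lower in CD11b+ B cells, the groups overlapped, and the log2 difference was -0.09 (SE 0.18, limma adjusted p = 0.867; exact permutation p = 0.3). The 95% interval of the difference ran from -0.52 to 0.33 on this scale, which for a gene under 1 FPKM does not show that the groups are alike. None of the genes tested (0%) was called lower in CD11b+ B cells by limma, although 661 were lower and 1012 higher at an unadjusted p under 0.05. On whole reads, edgeR called 42 genes higher and 0 lower, and DESeq2 called 349 higher and 52 lower.

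The 2 genes thus stood in different proportions in the B cell groups. Of the reads on the pair, Lyz1 took 0.247%, 0.217% and 0.817% in CD11b+ B cells (exact Clopper-Pearson 95% intervals of 0.1599 to 0.364, 0.129 to 0.343 and 0.529 to 1.204). The shares in CD11b- B cells were 2.59%, 1.85% and 1.495% (1.82 to 3.57, 1.21 to 2.698 and 0.987 to 2.17). In PMs it took 2.18% (2.14 to 2.22), 1.55% (1.53 to 1.57) and 1.53% (1.51 to 1.55). These intervals cover counting error only, since reads from amplified cDNA are not independent molecules. All CD11b+ libraries lay below all others, and CD11b- B cells and PMs overlapped.

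The mean share of Lyz1 was 0.427 ± 0.338% in the CD11b+ group, 1.98 ± 0.559% in the CD11b- group and 1.76 ± 0.369% in PMs (SD, n = 3 each). The CD11b+ mean minus the CD11b- mean was -1.55 percentage points, and minus the PM mean -1.33 points, each with an exact two-sided permutation p = 0.1, the smallest this design allows. Between CD11b- B cells and PMs the difference was 0.222 points (exact permutation p = 0.7). Per length, Lyz2 stood 388, 441 and 117 times above Lyz1 in CD11b+ B cells and 36.1 to 63.2 times in CD11b- B cells, a range that spans the one in PMs.

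**Figure D3:**
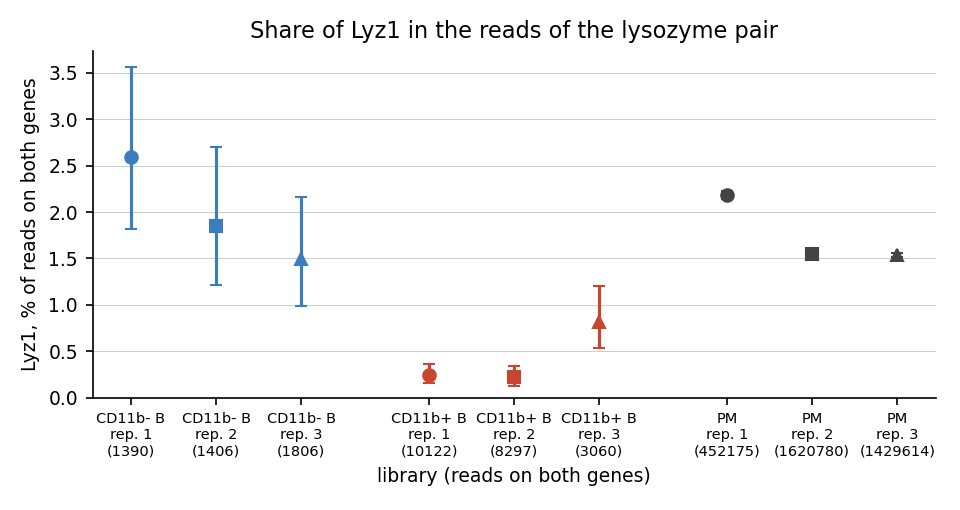
Share of Lyz1 in the reads on Lyz1 and Lyz2 (%), by library, with 95% Clopper-Pearson intervals as bars and the number of reads on both genes in brackets. The 3 CD11b+ B cell libraries lie between 0.217% and 0.817%, below the 6 others, which lie between 1.495% and 2.59%.

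Against PMs, both genes were far lower in both B cell groups. In CD11b+ B cells, Lyz2 was 199.6-fold lower than in PMs by the means (log2 difference -7.74, SE 0.64, limma adjusted p = 7.50e-05). Lyz1 was 1110-fold lower (log2 difference -8.64, SE 0.26, limma adjusted p = 6.51e-07). All genes tested included 8.78% called lower and 21.5% called higher in this comparison, and 12.4% that were lower without overlap between groups.

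In CD11b- B cells, Lyz2 was 1098-fold lower than in PMs (log2 difference -9.95, SE 0.40, limma adjusted p = 2.16e-06). Lyz1 was 936-fold lower (log2 difference -8.54, SE 0.26, limma adjusted p = 6.75e-07). Here 11% of all genes tested were called lower, 25.8% were called higher, and 15.2% were lower without overlap. The groups of both genes were separated in both comparisons with PMs, each with an exact permutation p = 0.1, and each was called under all 17 alternatives tried. Since the comparisons share the PM libraries, their values stand side by side and are not independent of each other.

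The split of calls between higher and lower moved with the scaling. Genes higher in B cells were 71.0% of the calls for CD11b+ B cells against PMs and 53.2% after median-ratio scaling of the FPKM, and 70.1% and 52.5% for CD11b- B cells. The median log2 difference of all genes tested was 0.25 and 0.13 in the first comparison and 0.24 and 0.07 in the second, which is small beside the values of the lysozyme pair.

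The levels in B cells can be set beside those of other macrophage genes as a percentage of the PM mean. Lyz2 stood at 0.0911% of the PM mean in CD11b- B cells and at 0.692%, 0.637% and 0.173% in the CD11b+ libraries. Lyz1 stood at 0.107% in CD11b- B cells and 0.0901% in CD11b+ B cells. For 10 markers of resident peritoneal macrophages (such as Gata6, Timd4, Alox15 and Prg4), the median over genes was 0.0903% to 0.102% in the CD11b- libraries and 0.122% to 0.142% in the CD11b+ libraries. In CD11b- B cells, both lysozyme genes were thus read at about the same small fraction of the PM level as the typical gene of this list. In the CD11b+ libraries, Lyz1 stood at 0.102%, 0.0827% and 0.0852%, below the median of the list in each, and Lyz2 above it. The origin of these reads was not tested.

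Markers shared by monocytes and macrophages had another pattern. For the 11 of the 15 with at least 10 FPKM in PMs, among them Csf1r, the receptor for the macrophage growth factor CSF1, and the complement genes C1qa, C1qb and C1qc, the median was 0.0872% to 0.115% in CD11b- B cells. The CD11b+ libraries had medians of 1.15%, 0.991% and 0.555%. This minimum left out Ly6c2, Ms4a7, Cd300e and Cx3cr1, of which Ly6c2 was called higher than in PMs in both B cell groups and Ms4a7 in CD11b+ B cells (0.543 ± 0.284 against 0.00371 ± 0.00642 FPKM, limma adjusted p = 0.0341). Cd300e was at 1.54 ± 1.39 FPKM in CD11b+ B cells and 0.0371 ± 0.0507 in PMs (limma adjusted p = 0.0586). The minimum thus favours genes that are high in PMs. Over all 15 markers, a setting added after seeing the data, the CD11b+ medians were 1.88%, 1.28% and 0.858%. With either set the median was lowest in replicate 3, the library with the lowest Lyz2. Icam2, which B cells and endothelial cells also express, was the exception of the resident macrophage list, at 8.22% to 12.4% of the PM mean in all B cell libraries.

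**Figure D4:**
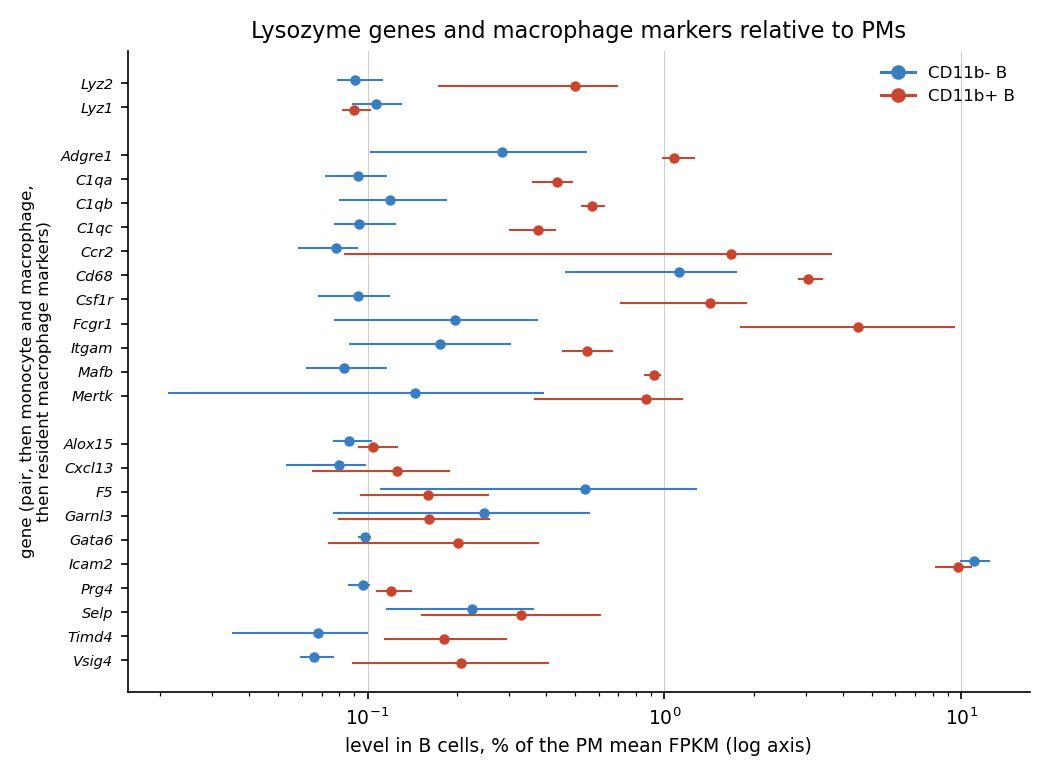
Level of Lyz2, Lyz1, 11 monocyte and macrophage markers (those with at least 10 FPKM in PMs) and 10 resident macrophage markers in B cells, as % of the PM mean FPKM (log axis), with points for group means and lines from the lowest to the highest of 3 libraries. Lyz1 lies near 0.1% in both groups, while Lyz2 lies near it only in CD11b- B cells and reaches 0.692% in CD11b+ B cells.

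Markers of neutrophils, which also make Lyz2, moved with the CD11b+ libraries. The 15 genes, among them Ngp, Camp, Ltf and Ly6g, summed to 655, 1568 and 217 FPKM in CD11b+ B cells. Their sums were 1.85 to 3.15 FPKM in CD11b- B cells and 67.7 to 96.2 FPKM in PMs. The PM sum was mostly Csf3r (62.9 ± 12.9 FPKM) and Mmp9 (9.29 ± 0.24 FPKM), named with their values in view. Ngp, Camp and Ltf averaged 0.357, 0.375 and 0.132 FPKM in PMs, and Ly6g was at 0 there. Set against PMs, 8 of the 15 passed the threshold upward in CD11b+ B cells, beside 21.5% of all genes. Csf3r and Mmp9 passed it downward (limma adjusted p = 9.86e-05 and 0.0496), beside 8.78%. The CD11b+ library with the lowest sum was also the one with the lowest Lyz2, but the highest sum was not in the library with the highest Lyz2. Of the 15 genes tested, S100a8, S100a9 and Retnlg passed the threshold between the B cell groups, beside 0.0689% of all genes called higher. Without CD11b+ replicate 3 there were 8, beside 0.187% of all genes. All were higher in CD11b+ B cells. No marker was at 0 in the first 2 CD11b+ libraries, while Stfa2l1 and Mpo were at 0 in replicate 3. The part of neutrophil RNA in the Lyz2 difference was not tested.

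The 15 monocyte and macrophage markers summed to 92.4, 90.4 and 106 FPKM in the CD11b+ libraries, against 28.1 to 32.7 FPKM in CD11b- B cells. Ly6c2 (28.6, 26.4 and 46.1 FPKM) and C1qb (27.1, 22.9 and 24.1 FPKM) made up most of each sum, and the other 13 members summed to 36.7, 41.0 and 36.2 FPKM. Some single members differed more between these libraries than the sums did. Ccr2, a chemokine receptor of monocytes, was at 0.549, 0.192 and 0.0126 FPKM and Csf1r at 3.56, 3.19 and 1.36 FPKM, both lowest in replicate 3 as Lyz2 was. In contrast, Cd300e (0.326, 1.23 and 3.06 FPKM) and Fcgr1, an Fc receptor (0.342, 0.280 and 1.47 FPKM), were highest there. These 6 members were singled out with their values in view. Of the 15, 7 were lowest and 3 highest in replicate 3. None of the 15 was at 0 in a CD11b+ library, whereas Cd300e was at 0 in all CD11b- libraries.

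None of the 15 passed the threshold between the B cell groups in limma, beside 0.0689% of all genes called higher. Without CD11b+ replicate 3 Csf1r did, beside 0.187% of all genes. At an unadjusted p under 0.05, 12 of the 15 were higher, beside 4.65% of all genes. On whole reads, edgeR called 2 of 14 higher, beside 0.269% of all genes, and DESeq2 called 13 of 15, beside 1.82% of those to which it gave an adjusted p. Resident macrophage markers summed to 64.3 to 75.6 FPKM in CD11b+ and 69.9 to 87.6 FPKM in CD11b- B cells, and most of this was Icam2. Without it, in a sum added after seeing the data, the other 9 members came to 13.0, 8.47 and 10.7 FPKM in CD11b+ B cells and 7.63, 6.83 and 10.5 FPKM in CD11b- B cells, and the groups overlapped. Their part in the level of either lysozyme gene was not tested.

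**Figure D5:**
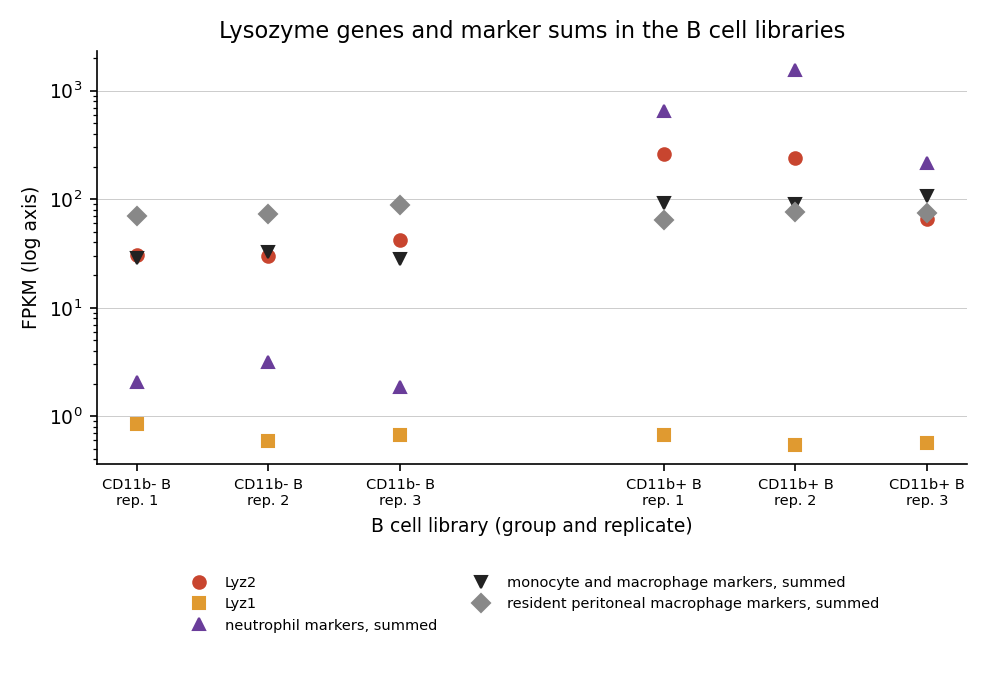
FPKM (log axis) of Lyz2, Lyz1 and the summed FPKM of 3 marker lists in the 6 B cell libraries. Neutrophil markers and Lyz2 are both lowest in replicate 3 among CD11b+ libraries, while Lyz1 stays between 0.544 and 0.854 FPKM in all 6.

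Sums of T and NK cell markers and of erythroid markers also stood higher in the CD11b+ libraries, without overlap. Of all single genes tested, 8.63% were higher there without overlap. T and NK cell markers (10 genes) summed to 3.62, 4.29 and 3.10 FPKM in CD11b+ B cells, 0.625, 0.0614 and 2.66 FPKM in CD11b- B cells and 3.74 to 6.46 FPKM in PMs. Erythroid markers (8 genes) summed to 47.6, 49.97 and 38.9 FPKM in CD11b+ B cells, 25.5, 13.1 and 2.22 FPKM in CD11b- B cells and at most 0.680 FPKM in PMs. No member of either list passed the threshold between the B cell groups in limma, beside 0.0689% of all genes called higher. At an unadjusted p under 0.05, 1 of 7 and 4 of 7 tested were higher, beside 4.65% of all genes. edgeR called 0 of either list, beside 0.269% of all genes called higher. DESeq2 called 2 of 10 T and NK cell markers higher and 0 erythroid markers, beside 1.82% of all genes. Their part in the Lyz2 difference was not tested. Markers of Paneth cells and gut epithelium, the cells best known for Lyz1, summed to at most 4.03 FPKM, and Defa17, Defa24, Mmp7 and Ang4 were at 0 in every library. Epcam, which epithelia share with other cells, was the member of that list called higher in B cells than in PMs.

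The rest of the lysozyme family was low. Of 10 family genes (c-type, g-type and lysozyme-like), 3 had enough signal to be tested, and Lyz2 and Lyz1 were the 2 that passed the threshold, both against PMs. Lalba, the milk protein alpha-lactalbumin that evolved from lysozyme, came next by mean level, at 0.174 FPKM over all libraries. It was uneven, at 1.05 FPKM (26 reads) in CD11b- replicate 3, above Lyz1 there, at 0.353 and 0.0991 FPKM in the first 2 CD11b+ libraries, and at 0 or 0.0643 FPKM in the others. Next was Spaca5, a sperm protein, at 0.0175 FPKM. Spaca3 and Lyg1 were at 0 in all 9 libraries.

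Genes that sense or handle the products of lysozyme, the fragments of peptidoglycan, formed a list of 15. Between the B cell groups, none of the 12 tested passed the threshold, beside 0.0689% of all genes called higher. At an unadjusted p under 0.05, 2 were higher and 0 lower, beside 1012 and 661 of all 21778 genes. edgeR and DESeq2 called 0 of the list, beside 0.269% and 1.82% of all genes called higher. The median log2 difference of the 12 was 0.02, beside 0.03 for all genes. Pglyrp1, which binds peptidoglycan, was at 18.8 ± 3.21 FPKM in CD11b+ and 11.9 ± 3.92 FPKM in CD11b- B cells (log2 difference 0.66, limma adjusted p = 0.643). The intracellular sensor Nod1 was at 6.23 ± 1.06 and 3.99 ± 0.454 FPKM (log2 difference 0.53, limma adjusted p = 0.635).

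Against PMs, members of this list were called in both directions. Slc15a4, a lysosomal transporter that carries muramyl dipeptide, was higher in B cells, at 24.9 ± 2.89 FPKM in CD11b+, 31.6 ± 3.36 in CD11b- B cells and 9.27 ± 1.45 in PMs (log2 differences 1.34 and 1.67, limma adjusted p = 0.00187 and 0.000390). Pglyrp2, an amidase that cuts peptides off peptidoglycan, was higher in both as well (log2 difference 1.75 in each), and the transporter Slc46a3 passed in CD11b+ B cells (1.74) but not in CD11b- B cells (1.72, limma adjusted p = 0.0556). Tlr2, a receptor for bacterial lipoproteins, was at 6.42 ± 2.43, 7.24 ± 1.89 and 23.0 ± 2.30 FPKM in CD11b+ B cells, CD11b- B cells and PMs (-1.75 and -1.56 against PMs). Nagk, a sugar kinase, was at 6.43 ± 0.481, 6.70 ± 1.64 and 22.97 ± 6.33 FPKM in the same order (-1.66 and -1.63). Lower in both B cell groups were also Nod1 (-1.18 and -1.70) and the inflammasome sensor Nlrp3 (-1.43 and -1.46). In CD11b+ B cells, 3 of 12 tested were higher and 4 lower, beside 21.5% and 8.78% of all genes. In CD11b- B cells, 2 of 13 were higher and 4 lower, beside 25.8% and 11% of all genes. The share called higher was thus near that of all genes or below it. The list had medians of -0.13 and -0.07, beside 0.25 and 0.24 for all genes. After median-ratio scaling, Slc46a3 no longer passed, and the other calls of the list held.

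Other antibacterial proteins of granules and secretions were the list with the largest median between the B cell groups among the 4 lists of lysozyme biology. Between the B cell groups, 2 of 14 tested of 16 passed, S100a8 and S100a9, the subunits of calprotectin, beside 0.0689% of all genes called higher. Without CD11b+ replicate 3 there were 9 of 13, beside 0.187% of all genes. S100a8 was at 88.1 to 428 FPKM in CD11b+ and 0.619 to 1.04 FPKM in CD11b- B cells, and its log2 difference was 6.69 (limma adjusted p = 0.00566). That of S100a9 was 7.04 (limma adjusted p = 0.0137). The median over the 14 genes was 2.95, beside 0.03 for all genes. Both are also neutrophil markers, as are Camp, Ltf, Ngp, Mpo and Elane of this list.

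Against PMs, Slpi, Hp and Prtn3 were lower in both B cell groups, as Lyz2 was. Slpi, an inhibitor of serine proteases with antibacterial activity, was at 2660 ± 479 FPKM in PMs, 16.3 ± 2.77 in the CD11b+ group and 8.98 ± 4.24 in the CD11b- group (log2 differences -7.27 and -8.12). Hp, which encodes haptoglobin, gave -4.26 and -6.84, and Prtn3, which encodes proteinase 3, gave -5.42 and -7.18. In contrast, S100a8, S100a9, Camp, Ngp, Ltf and Elane were higher in CD11b+ B cells when set against PMs, by 3.01 for Elane to 6.30 for Ngp, whereas CD11b- B cells had no member higher and also had Lcn2 (-1.45) and S100a8 (-1.86) lower. Among all genes, 21.5% and 25.8% were called higher than in PMs, and 8.78% and 11% lower. The median over the list was 1.94 in CD11b+ and -0.60 in CD11b- B cells, beside 0.25 and 0.24 for all genes.

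Of 10 transcription factors known to act on myeloid lysozyme genes, none passed the threshold between the B cell groups in limma. Of all genes, 0.0689% were called higher and 0% lower. At an unadjusted p under 0.05, 0 of the 10 were higher and 2 lower, beside 1012 and 661 of all 21778 genes. edgeR and DESeq2 called 0 of the 10, beside 0.269% and 1.82% of all genes called higher. Spi1, which encodes PU.1 and is used by B cells as well as macrophages, was at 37.8 ± 4.75 FPKM in CD11b+ and 43.9 ± 6.18 FPKM in CD11b- B cells. Cebpa, a driver of the myeloid fate, was at 0.158 ± 0.105 and 0.0191 ± 0.0179 FPKM (37 and 5 reads over the groups, limma adjusted p = 0.725). Both were above this in PMs, at 96.7 ± 31.7 and 17.8 ± 2.34 FPKM.

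Compared with PMs, Spi1 (-1.29 and -1.08), Cebpa (-4.01 and -4.19), Cebpb (-4.92 and -5.01) and Cebpd (-2.59 and -2.91) were lower on the log2 scale in CD11b+ and CD11b- B cells. Irf8 (2.46 and 2.77), Myb (2.66 and 3.19) and Gabpa (1.29 and 1.55) were higher in both, and Fli1 passed in CD11b- B cells (0.84). After median-ratio scaling, Gabpa in CD11b+ and Fli1 in CD11b- B cells no longer passed. Beside these calls, 21.5% and 25.8% of all genes were called higher in CD11b+ and CD11b- B cells, and 8.78% and 11% lower.

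The genes whose log2(FPKM + 1) tracked each paralog most closely were not the same. Over all 9 libraries, the 5 most like Lyz2 among 12492 genes were Pla2g7, C5ar1, Csf1r, Fcgr3 and Ccl6 (Pearson r 0.997 to 0.996), all myeloid genes with means in CD11b+ between those of CD11b- B cells and PMs. Those most like Lyz1 were S1pr5, Fam78b, Slc9a3r2, Ptgis and Cyp26a1 (r above 0.999), each at or under 0.222 FPKM on average in both B cell groups. The PM libraries set most of these values, since they lie so far from the rest, and r between Lyz2 and Lyz1 was 0.968.

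Over the 6 B cell libraries alone, Prtn3 (r 0.995), Pla2g7 (0.993), Ptpn7, Cope and Chil3 (0.986) were closest to Lyz2. Pla2g7, which encodes platelet-activating factor acetylhydrolase, was thus near Lyz2 both with and without PMs. For Lyz1, with 18 to 36 reads a library, the closest were Capn7, Aifm1, Sc5d, Txlng and Zfp451 (r 0.988 to 0.970), and r between the paralogs was -0.38. These r are descriptions over few libraries that share group and depth.

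The measured genes around the pair were few. Within 200 kb on either side, 12 other genes were in the table, and 9 had a mean under 1 FPKM. The other 3 were Yeats4, a subunit of chromatin complexes, Cpsf6, a factor of mRNA 3′ end processing, and Frs2, an adaptor of growth factor receptors. Yeats4 was at 67.2 ± 8.12 FPKM in the CD11b+ group, 63.5 ± 0.949 in the CD11b- group and 28.3 ± 8.88 in PMs. Against PMs, Yeats4 (log2 differences 1.26 and 1.18) and Cpsf6 (1.196 and 1.36) were called higher in both B cell groups, the direction of 21.5% and 25.8% of all genes. After median-ratio scaling, Cpsf6 no longer passed in CD11b+ and Yeats4 no longer in CD11b- B cells, and DESeq2 called 0 of the 3 in CD11b+ and Cpsf6 alone in CD11b- B cells. None of the 3 passed between the B cell groups in limma, also at an unadjusted p under 0.05 (0 of 3), nor in edgeR or DESeq2.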

How the data were processed

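RNA-seq libraries of sorted cells were made with a SMART-seq HT kit and sequenced as read pairs. Per the labels and the study's methods, the authors trimmed reads (Trim Galore 0.4.4, Trimmomatic 0.36 and cutadapt 1.16 are named in the submitters' processing notes), mapped them to GRCm38 with STAR 2.7.2b, counted them with featureCounts 1.6.1 and used DESeq2 1.20.0. The authors deposited FPKM for 55322 genes and, for 11063 genes, a normalized signal (reads scaled by each library's size factor, with a cluster per gene). Strand and multi-mapping settings are not given in the sources used here. The notes name GRCm39 beside GRCm38, and positions in the table differ from GENCODE M21, so positions printed are those of GENCODE M21 or RefSeq by identifier.

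From these values, FPKM times exon length gave whole reads for 100% of values within 0.05 of a read, and the second table gave the same reads. limma 3.58.1 (eBayes with a trend, two-sided, R 4.3.3) was run on log2(FPKM + 1) for the 6 libraries of each comparison, for genes whose mean FPKM reached 0.05, with p-values adjusted over all of them (Benjamini-Hochberg) and a threshold of 0.05. Exact permutation tests compared single values. Alternatives were other pseudocounts, filters, scaling and variance models, all 9 libraries in one fit, blocks by replicate number, each library left out, and edgeR 4.0.16 and DESeq2 1.42.0 on whole reads. Counts of list members under each alternative were added after seeing the data. The fits were tested on simulated data. Promoters and transcripts were aligned with Biopython 1.88.

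The 2 genes and the 11 gene lists (126 genes) were chosen with earlier results of these data known, so the counts over lists are descriptions. Named are list members past the threshold and the 4 most abundant genes of the lysozyme family and peptidoglycan lists, the 5 genes most like each paralog by Pearson r (mean FPKM of at least 1), and neighbours within 200 kb with a mean FPKM of at least 1. Of the B cell list, Cd79a and Ms4a1 were named as a check of the labels after their values were seen, and its sum is not reported here. Most markers of cell types past the threshold against PMs are given as sums, not each by name, and Icam2, Itgam, Nod1, Spi1 and Cebpa were described between the B cell groups after their values were seen.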

Additional observations from a re-analysis of the deposited data

How the results depend on the processing

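The differences of Lyz2 and Lyz1 from PMs kept their direction and stayed past the threshold under all 17 alternatives for each, and Lyz1 between the B cell groups was negative and not past it under all 17 that gave a value (a minimum mean FPKM of 1 left it out). Lyz2 between the B cell groups was positive under 18 alternatives and past the threshold under 4: DESeq2 (2.44, adjusted p = 3.66e-07), edgeR without a filter (2.43, adjusted p = 7.78e-28), the replicate block by the numbers in the sample descriptions, which uses the 2 pairs those share (1.83, limma adjusted p = 0.0304), and 1 left-out library. With each library left out in turn the difference ranged from 1.86 to 2.85, and it was called without CD11b+ replicate 3. The block by description number left out replicate 2 of each B cell group, so the pairing and the set of libraries changed together. The replicate block by title number, with all 6 libraries, gave 2.21 (limma adjusted p = 0.277). Deviations of libraries with the same title number correlated at 0.284, -0.0193 and 0.206. The pairs at 0.284 and 0.206 are those that also share a description number, and the third does not. The title numbers were therefore not taken as pairs, and with 2 pairs only the description numbers were not either, so whether the pairing holds is not known. The block by title number changed no call of either gene and left the mean shares of Lyz1 as they were.

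The count of genes called between the B cell groups moved with most settings: 15 higher and 0 lower in limma, 16 and 0 with the title block, 98 and 29 with the description block, 2 and 4 with no filter, 34 and 3 or 23 and 2 with a pseudocount of 0.1 or 0.01, 31 and 0 with a minimum mean FPKM of 1, 31 and 5 with all 9 libraries, 42 and 0 in edgeR, 349 and 52 in DESeq2, 416 and 155 in edgeR without a filter, and 3 to 40 higher with 1 library left out. Against PMs the calls ran from 2850 to 5689 higher and 1335 to 3444 lower for CD11b+ B cells (4760 and 1940 in limma), and from 3200 to 5837 and 1565 to 4143 for CD11b- B cells (5404 and 2306). The cause was not tested. The share of Lyz1 moved by less than the spread between libraries in every alternative, with left-out libraries giving -1.79 to -1.25 percentage points for CD11b+ against CD11b- B cells, -1.52 to -1.12 for CD11b+ B cells against PMs and -0.084 to 0.463 for CD11b- B cells against PMs. Depth limits Lyz1 in B cells, where a library held at most 36 reads. Among the lists, DESeq2 (1.82% of all genes higher) called 13 of 15 neutrophil and 13 of 15 monocyte and macrophage markers higher in the CD11b+ group where limma (0.0689%) called 3 and 0, and 10 of 15 antibacterial genes where limma called 2 of 14.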
